A study of Mus musculus with 6 samples.

Results

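A set of 10 genes of calcium-dependent calcineurin signalling was examined in mouse Müllerian ducts at E17.5, a late embryonic stage, after deletion of the Hippo kinase genes was targeted to the duct mesenchyme. They were the RCAN regulators Rcan1, Rcan2 and Rcan3, the calcineurin catalytic subunits Ppp3ca, Ppp3cb and Ppp3cc, and the transcription factors Nfatc1, Nfatc2, Nfatc3 and Nfatc4. The family was chosen by gene symbol because Rcan2 was higher in mutant ducts, so the difference of Rcan2 is given as a description without a test. Of the 10 genes, 9 had 1 row each among the 22206 transcript clusters of the array table, and Rcan3 was not analysed here.

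Mutant embryos, 3 in number, had the genotype Lats1f/f,Lats2f/f with Amhr2cre/+, and 3 control embryos had Lats1f/f,Lats2f/f without Cre. The floxed alleles were thus shared by both groups, and only the mutants carried a Cre insertion in 1 allele of Amhr2, the receptor gene of anti-Müllerian hormone, whose promoter is active in the mesenchyme around the Müllerian epithelium. Lats1 and Lats2 encode kinases that keep the coactivators YAP and TAZ out of the nucleus. Isolated ducts were profiled, 1 Affymetrix array per embryo, and the authors deposited log2 signals. In such bulk samples fewer cells of a type and less RNA per cell cannot be told apart.

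Calcineurin is a phosphatase that calcium and calmodulin switch on. It is built from a catalytic subunit, encoded by a Ppp3c gene, and a calcium-binding regulatory subunit, and it removes phosphates from the cytoplasmic NFAT factors, which then enter the nucleus and act with partners such as AP-1. RCAN proteins bind calcineurin and restrain it. Rcan1 is itself a classical NFAT target, through an internal promoter rich in NFAT sites, and is widely read as a sign of calcineurin activity, whereas Rcan2 is best known from brain, heart and muscle and as a gene that thyroid hormone induces.

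The internal promoter of Rcan1 and each of the 3 promoters of Rcan2 hold different sets of motifs. RefSeq's promoter table for GRCm38.p6 held 12 windows for 7 of the members, not counting Nfatc1, and the 250 bases before each start were read on the strand of the gene. The internal promoter of Rcan1 and the 3 promoters of Rcan2 are printed because these are the regulator known to follow NFAT and the regulator that was high in mutant ducts. Capitals mark the NFAT core GGAAA, or TTTCC on the other strand, and the AP-1 site TGANTCA.
Rcan1 internal promoter, minus strand, chr16:92400079-92400328: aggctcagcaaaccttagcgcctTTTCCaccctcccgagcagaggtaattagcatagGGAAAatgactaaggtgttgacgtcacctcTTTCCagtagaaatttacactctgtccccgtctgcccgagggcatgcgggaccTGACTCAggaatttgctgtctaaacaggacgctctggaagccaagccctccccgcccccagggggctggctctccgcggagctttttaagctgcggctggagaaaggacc
Rcan2 first promoter, plus strand, chr17:43801102-43801351: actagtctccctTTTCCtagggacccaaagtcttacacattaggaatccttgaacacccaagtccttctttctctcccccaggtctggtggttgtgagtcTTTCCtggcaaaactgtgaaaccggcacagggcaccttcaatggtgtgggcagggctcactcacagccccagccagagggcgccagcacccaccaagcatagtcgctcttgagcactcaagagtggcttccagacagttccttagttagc
Rcan2 second promoter, plus strand, chr17:43801601-43801850: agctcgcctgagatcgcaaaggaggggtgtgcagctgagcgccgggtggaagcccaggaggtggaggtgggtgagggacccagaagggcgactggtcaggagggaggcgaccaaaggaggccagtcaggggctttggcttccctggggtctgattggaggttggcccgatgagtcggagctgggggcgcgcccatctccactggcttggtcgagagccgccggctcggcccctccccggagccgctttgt
Rcan2 downstream promoter, plus strand, chr17:43952749-43952998: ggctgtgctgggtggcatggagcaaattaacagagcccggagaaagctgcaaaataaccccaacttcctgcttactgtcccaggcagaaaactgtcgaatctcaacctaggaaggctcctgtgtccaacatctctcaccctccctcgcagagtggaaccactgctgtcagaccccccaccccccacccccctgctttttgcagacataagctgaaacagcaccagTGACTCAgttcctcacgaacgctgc

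The Rcan1 internal window held 3 NFAT cores and 1 AP-1 site. The other Rcan1 window, not printed, held neither motif, as did the second Rcan2 window. Taken over all their windows, both genes had NFAT cores and 1 AP-1 site. The first Rcan2 window held 2 NFAT cores and no AP-1 site, the second held neither motif, and the most downstream held 1 AP-1 site and no NFAT core. The NFAT core was present in 8 of the 12 windows of the members and in 55.6% of all 32851 windows of this length, and the AP-1 site in 2 of the 12 and in 6.75% of all. The letters GGAATG of the TEAD motif, the site through which YAP and TAZ reach DNA, searched on both strands, were in 0 of the 12 windows and in 12.6% of all. A match is a run of letters and not a measured binding site, and the single array row of each gene does not tell which start was used.

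The genotype and the tissue were read first. Amhr2 was at 6.92, 7.52 and 6.54 in mutant ducts and at 10.88, 10.51 and 10.80 in control ducts. Lats1 was at 11.12, 11.77 and 11.60 in mutant ducts and at 12.51, 12.13 and 12.20 in control ducts (limma adjusted p = 0.0958), and Lats2 lay between 11.32 and 11.95 in mutant ducts and between 11.17 and 11.58 in control ducts (limma adjusted p = 0.684). The positions of the Lats1 and Lats2 probes within the transcripts were not known here, and these rows therefore do not check the deletion. Each array's background level, the median of its antigenomic probes, was between 5.67 and 5.88 on mutant and between 5.35 and 5.86 on control arrays. The number of arrays limits the precision of all values. The library control 3 stood apart: the summed signal of 5 urothelial markers was between 10.72 and 10.89 on the log2 scale in mutant ducts, against 14.61 in control 3 and 10.70 and 11.23 in control 1 and control 2.

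Rcan2 carried the largest difference of the family. Its log2 signal was 12.67, 12.38 and 12.32 in mutant ducts, against 8.36, 8.08 and 9.04 in control ducts. All mutant arrays lay above all control arrays, with a gap of 3.28 between the lowest mutant and the highest control value, beside a range of 0.35 among mutants and 0.97 among controls. The means were 12.46 ± 0.19 in mutant and 8.49 ± 0.50 in control ducts (SD, n = 3 each), a log2 difference of 3.97 or 15.6-fold. That was the 8th largest positive difference of all 22206 transcript clusters. The signal was above background on all 6 arrays, so neither mean rests on background. Without control 3, in which Rcan2 was the highest of the controls, the difference was 4.24.

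**Figure D1:**
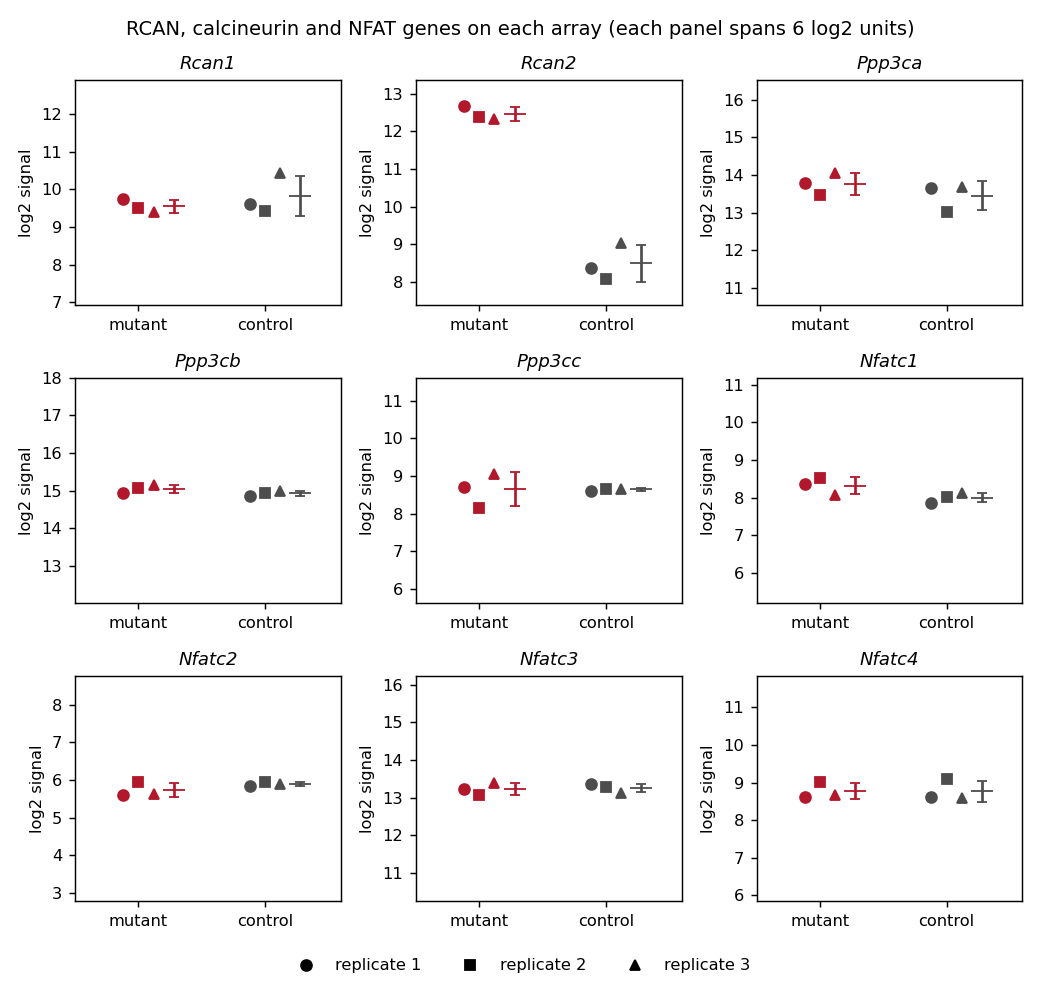
Log2 signal of the 9 measured genes on each array, with mutant arrays on the left and control arrays on the right of each panel. Marker shapes stand for the replicate numbers, bars for the mean ± SD of 3 arrays, and every panel spans 6 log2 units. The mutant arrays of Rcan2 sit between 12.32 and 12.67 and its control arrays between 8.08 and 9.04, while both groups overlap in the 8 other panels.

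Rcan1, the NFAT-induced regulator, did not pass the test. It was at 9.75, 9.50 and 9.40 in mutant ducts and at 9.61, 9.44 and 10.42 in control ducts. The groups overlapped, and 1 control array, control 3, was higher than the other 5. The log2 fold change was -0.27 ± 0.26 (SE), with a 95% interval from -0.86 to 0.31 and a limma adjusted p of 0.687. Without control 3 it was 0.03 (limma adjusted p = 0.972), so the sign of the difference depends on that array.

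None of the 3 catalytic subunit genes passed the test. Ppp3ca, the main catalytic subunit in many tissues, was at 13.77, 13.46 and 14.05 in mutant ducts and at 13.65, 13.01 and 13.69 in control ducts. Its log2 fold change of 0.31 ± 0.24 (SE) had a 95% interval from -0.22 to 0.84 (limma adjusted p = 0.604). The mutant arrays of Ppp3ca overlapped the control arrays, of which control 2 was the lowest. Ppp3cb, the other broadly expressed catalytic subunit, was at 14.94, 15.06 and 15.15 in mutant ducts and at 14.86, 14.94 and 14.98 in control ducts, a difference of 0.12 ± 0.16 (SE; limma adjusted p = 0.776). Its range was narrow in both groups, 0.20 among mutants and 0.12 among controls. Ppp3cc, known chiefly from testis, was at 8.72, 8.16 and 9.07 in mutant ducts and at 8.61, 8.66 and 8.67 in control ducts. The means of Ppp3cc were 8.65 in mutant and 8.65 in control ducts (log2 fold change 0.01 ± 0.23, SE; limma adjusted p = 0.994), while the mutant arrays ranged over 0.91 and the control arrays over 0.05.

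The 4 NFAT genes did not pass either. Nfatc1, the factor of osteoclasts, heart valves and lymphocytes, was at 8.36, 8.52 and 8.07 in mutant ducts and at 7.86, 8.03 and 8.11 in control ducts. Of the 8 members other than Rcan2 it had the highest log2 fold change, 0.31 ± 0.18 (SE), with an interval from -0.09 to 0.72 and a limma adjusted p of 0.466. Mutant 3 was below control 3, and the other mutant arrays were above all controls. Nfatc2, best known from T cells, was at 5.60, 5.95 and 5.64 in mutant ducts and at 5.85, 5.94 and 5.89 in control ducts. These signals were above background on 1 of 3 mutant and 3 of 3 control arrays and below the median of the negative-control rows on all 6, so Nfatc2 was hardly measured here (log2 fold change -0.16 ± 0.17, SE; limma adjusted p = 0.721).

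Nfatc3, a factor found in many tissues, was at 13.25, 13.09 and 13.40 in mutant ducts and at 13.35, 13.28 and 13.13 in control ducts. Its log2 fold change was -0.01 ± 0.17 (SE; limma adjusted p = 0.988), with an interval from -0.38 to 0.36. Nfatc4, known from heart and nervous system, was at 8.62, 9.01 and 8.67 in mutant ducts and at 8.62, 9.10 and 8.59 in control ducts. Its means were 8.77 in both groups (log2 fold change 0.00 ± 0.20, SE; limma adjusted p = 0.997).

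The 8 members other than Rcan2 were then read together. By limma, 0 of the 8 measured genes passed an adjusted p of 0.05, where 3.26% of all transcript clusters did, and 0 of 8 had an unadjusted p under 0.05, where 15.3% of all transcript clusters did. In 0 of 8 did the groups separate without overlap, where 21.1% of all transcript clusters separated. Their median log2 fold change was 0.00, beside -0.01 for all transcript clusters, and 5 of 8 values were above 0. The 95% intervals ran from -0.86 at the lowest to 0.84 at the highest bound, so that all 8 lay within 1 log2 unit, a change of less than 2-fold either way. As Nfatc2 was hardly measured, its interval does not limit the change of its RNA. These values do not show that the 8 genes were equal in both genotypes.

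**Figure D2:**
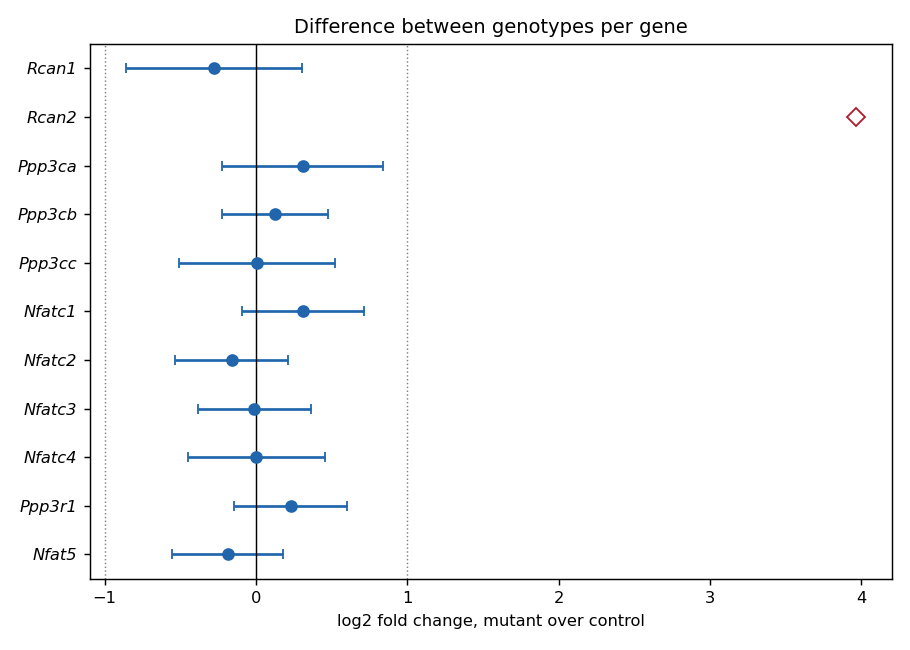
Log2 fold change, mutant over control, of the 9 measured members, of the regulatory subunit gene Ppp3r1 and of Nfat5. Points are limma estimates with 95% intervals, the open diamond is the Rcan2 difference of 3.97 shown without an interval, and dotted lines mark 1 log2 unit in each direction. The intervals of the 8 other members lie between -0.86 and 0.84.

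The remaining genes of the pathway were followed in 7 lists of 89 genes, of which 84 were measured. By limma 5 rose and 2 fell, and the median log2 fold change was 0.02, beside -0.01 over all transcript clusters. Rises made up 2.59% and falls 0.666% of all transcript clusters. An unadjusted p under 0.05 was found for 22 of the 84, against 15.3% of all transcript clusters, and groups without overlap for 27 of the 84, against 21.1%. The count was 4 without mutant 1 or without control 2.

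None of the 12 measured calcineurin partners and regulators passed by limma, where 3.26% of all transcript clusters did. Of the 12, 1 had an unadjusted p under 0.05, against 15.3% of all transcript clusters. Groups without overlap were found for 2 of the 12, against 21.1%. Ppp3r1, the regulatory subunit that pairs with the catalytic subunits in most tissues, was at 13.28, 13.33 and 13.61 in mutant ducts and at 13.09, 13.21 and 13.23 in control ducts. Its groups did not overlap, but its log2 fold change of 0.23 ± 0.17 (SE) did not pass (limma adjusted p = 0.579). Calm3, 1 of the calmodulin genes, had a log2 fold change of -0.46 ± 0.15 (SE; limma adjusted p = 0.172). Fkbp1a, whose product binds the drug FK506 that inhibits calcineurin, was at -0.40 ± 0.20 (limma adjusted p = 0.379). The calcineurin anchor Akap5 and the muscle protein gene Myoz1 were below background on all arrays, as were 5 of the 12 genes in all.

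Among 11 NFAT kinases, which return NFAT factors to the cytoplasm, none passed by limma, where 3.26% of all transcript clusters did. Groups without overlap were found for 3 of the 11, against 21.1% of all transcript clusters. Of the 11, 2 had an unadjusted p under 0.05, against 15.3% of all transcript clusters. Those were Dyrk1b, with a log2 fold change of -0.55 ± 0.20 (SE; limma adjusted p = 0.222), and Prkaca, a catalytic subunit of protein kinase A, with -0.52 ± 0.23 (limma adjusted p = 0.325). Gsk3a was at -0.31 ± 0.19 and Csnk1e at 0.25 ± 0.20. Nfat5, the relative that responds to osmotic stress and lacks calcineurin control, was at 13.59, 13.75 and 13.83 in mutant ducts and at 13.88, 14.04 and 13.80 in control ducts (limma adjusted p = 0.658).

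Calcium entry and release genes gave 1 rise and 1 fall among 16 measured, beside 2.59% and 0.666% of all transcript clusters. An unadjusted p under 0.05 was found for 5 of the 16, against 15.3% of all transcript clusters. Groups without overlap were found for 7 of the 16, against 21.1%. Itpr2, an inositol trisphosphate receptor that lets calcium out of the endoplasmic reticulum, was at 9.98, 10.39 and 10.43 in mutant ducts and at 12.46, 11.97 and 11.93 in control ducts. It fell by 1.85 ± 0.21 (SE) on the log2 scale (limma adjusted p = 0.00146), with no overlap between the groups, and passed in each of the 6 fits that left out 1 array. The other inositol trisphosphate receptor genes of the list, Itpr1 and Itpr3, had no row under their symbols and were not measured. Plcg2, a phospholipase known from blood cells, had a log2 fold change of 1.06 ± 0.20 (SE; limma adjusted p = 0.0194). Its control signal was below background on all arrays and its mutant signal above it on 2 of 3, so the size of the rise is of little precision. The Plcg2 call was lost without mutant 1, mutant 3 or control 2, with limma adjusted p from 0.0600 to 0.0822. Macrophage markers moved with it: 6 of 10 rose and none fell, and their summed log2 signal was 14.14 to 14.42 in mutant ducts and 13.02 to 13.19 in control ducts; their part in the result was not tested. The store-operated channel gene Orai3 (0.55 ± 0.23, limma adjusted p = 0.290) and the calcium pump gene Atp2a2 (0.57 ± 0.16, limma adjusted p = 0.117) did not pass.

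Of 15 nuclear partners of NFAT, 1 rose by limma, beside 2.59% of all transcript clusters. An unadjusted p under 0.05 was found for 6 of the 15, against 15.3% of all transcript clusters. Groups without overlap were found for 6 of the 15, against 21.1%. Fos, a subunit of AP-1, was at 8.53, 8.50 and 8.61 in mutant ducts and at 6.52, 6.59 and 7.38 in control ducts, a log2 fold change of 1.71 ± 0.24 (SE; limma adjusted p = 0.00449). The groups of Fos did not overlap. On control 1 and control 2 Fos, at 6.52 and 6.59, was below the negative-control medians of 7.41 and 7.35. The size of its rise is therefore of limited precision. Fosl2 had 0.99 ± 0.27 (SE; limma adjusted p = 0.102) and passed without mutant 3 (limma adjusted p = 0.0401). Junb had 0.72 ± 0.26 at a signal below background on all arrays (limma adjusted p = 0.215), and the muscle and mesoderm factor Mef2c had 0.51 ± 0.17 (limma adjusted p = 0.174). Gata2 (-0.56 ± 0.21, limma adjusted p = 0.241) and Gata4 (-0.49 ± 0.20, limma adjusted p = 0.279) were lower in mutant ducts without overlap and did not pass. Gata4 was below the negative-control median on every array, so the size of its difference is of limited precision. Fos also belongs to 14 immediate early and stress genes, a list for sample handling, of which 5 rose and none fell. The summed log2 signal of that list was 14.68 to 14.93 in mutant ducts and 13.34 to 14.23 in control ducts, and its part in the result was not tested.

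Reported NFAT targets, mostly described in lymphocytes and osteoclasts, rose in 3 of 22 cases by limma and fell in none. Over all transcript clusters, 2.59% rose and 0.666% fell. The median log2 fold change of the list was 0.13, beside -0.01 for all transcript clusters. An unadjusted p under 0.05 was found for 6 of the 22, against 15.3% of all transcript clusters. Groups without overlap were found for 6 of the 22, against 21.1%. For 13 of the 22 the signal was below background on all arrays. Ptgs2, the inducible cyclooxygenase, was at 12.89, 12.89 and 12.33 in mutant ducts and at 5.72, 6.17 and 4.90 in control ducts, a log2 fold change of 7.11 ± 0.31 (SE; limma adjusted p = 1.73e-05). Its control signal was above background on 2 of 3 arrays and close to it, so the size is of little precision. The cytokine gene Il6 was at 5.99, 5.19 and 5.80 in mutant ducts and at 4.10, 3.98 and 3.72 in control ducts (limma adjusted p = 0.00375). It was above background on 1 mutant array and on none of the controls, so no fold is given. F3, tissue factor, rose by 1.00 ± 0.23 (SE; limma adjusted p = 0.0492). The F3 call was lost in every fit that left out 1 array except the one without control 3, with limma adjusted p from 0.0901 to 0.150. On control arrays F3 was at 6.86, 6.16 and 6.92, below the negative-control medians of 7.41, 7.35 and 7.20. Acp5, the acid phosphatase of osteoclasts and macrophages, was at 0.88 ± 0.28 and did not pass (limma adjusted p = 0.167). Ctsk (-0.51 ± 0.19, limma adjusted p = 0.222) and Egr3 (-0.48 ± 0.20, limma adjusted p = 0.306) were lower in mutant ducts. Neither passed, but both had an unadjusted p under 0.05. Egr3 was below the negative-control median on every array, so the size of its difference is of limited precision.

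Of 7 other calcineurin substrates, 1 fell by limma, beside 0.666% of all transcript clusters. An unadjusted p under 0.05 was found for 2 of the 7, against 15.3% of all transcript clusters. Groups without overlap were found for 3 of the 7, against 21.1%. The gene that fell was Dnm1, the dynamin of synaptic vesicle uptake. It was at 7.64, 7.90 and 7.46 in mutant ducts and at 8.42, 8.42 and 8.45 in control ducts. Its log2 fold change was -0.77 ± 0.17 (SE, limma adjusted p = 0.0463). That call was lost in every fit that left out 1 array except the one without mutant 2, with limma adjusted p from 0.104 to 0.151. Crtc1 and Crtc3, coactivators of CREB that calcineurin dephosphorylates, had -0.62 ± 0.18 (limma adjusted p = 0.123) and -0.36 ± 0.16 (limma adjusted p = 0.347), and the lysosomal factor Tfeb had -0.22 ± 0.20. The Tfeb signal was below the negative-control median on every array.

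**Figure D3:**
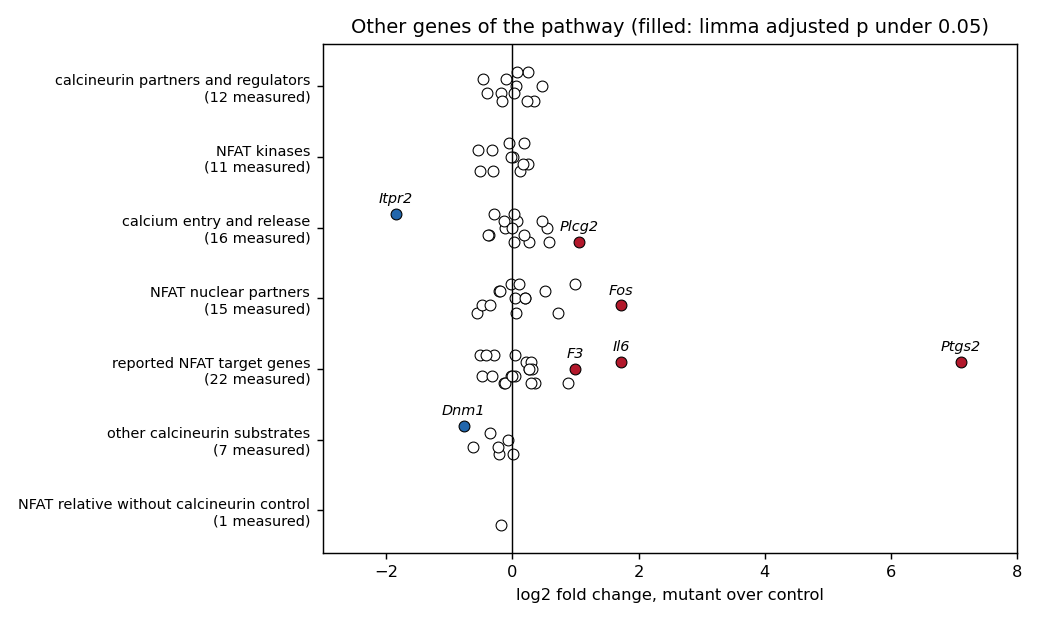
Log2 fold change, mutant over control, of the 84 measured pathway genes, 1 point per gene, by list. Filled points passed a limma adjusted p of 0.05, red for rises and blue for falls, and the vertical spread within a list only separates the points. Ptgs2, Il6, Fos, Plcg2 and F3 are the 5 rises and Itpr2 and Dnm1 the 2 falls.

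The genes whose profile over the 6 arrays was closest to that of Rcan2 were taken from 11852 other rows with a symbol and group means above background. Likeness was the root mean square distance between log2 profiles, each centred on its own mean, and the values share arrays and normalization. Bhlhe40, a circadian and hypoxia-responsive repressor, was nearest, at a distance of 0.19. It was followed by Inhba, the activin beta A subunit, at 0.30, Plaur, the urokinase receptor, at 0.31, Ccn1, a matricellular protein and known YAP target, at 0.32, and Bmp4, a ligand of the TGF-beta superfamily, at 0.33. Their log2 differences lay between 3.47 and 4.22, beside 3.97 for Rcan2. As Rcan2 was chosen for this contrast, the ranking is a description of its profile.

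For Rcan1 the nearest profiles were those of Napb, at a distance of 0.04, Asb2 at 0.09, Sorcs2 at 0.09, Far2 at 0.09 and Ttl at 0.10. Like Rcan1, each of these 5 had its highest signal in control 3. They were chosen for likeness to Rcan1 over the same arrays, so this peak follows from the choice.

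**Figure D4:**
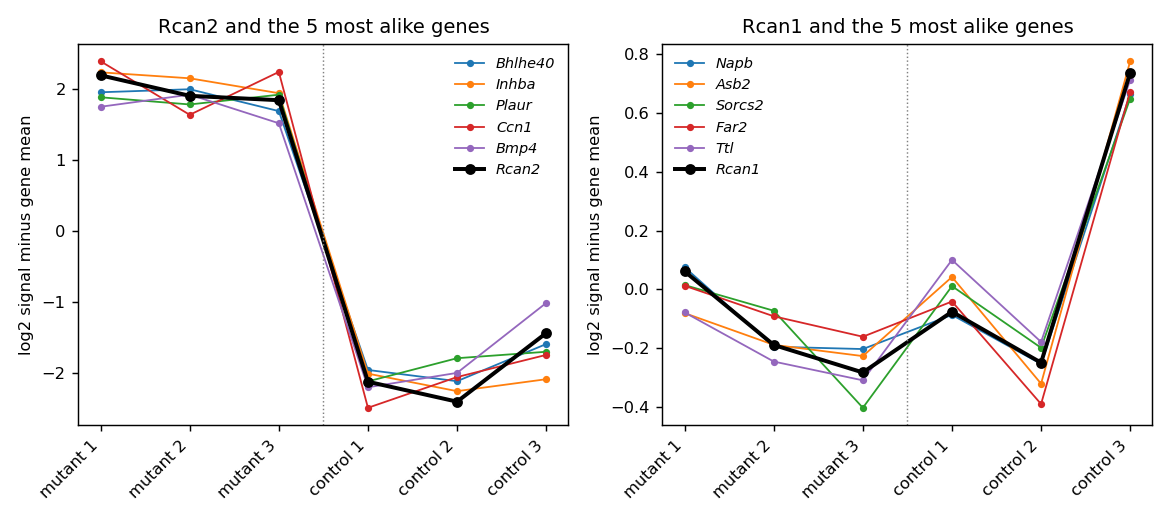
Centred log2 signal of Rcan2 (left) and Rcan1 (right) in black over the 6 arrays, with the 5 genes of nearest profile in colour. The vertical axes differ in range. The Rcan2 group is high on the 3 mutant arrays and low on the 3 control arrays, and the Rcan1 group is highest on control 3.

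Marker lists of other cell types were set beside Rcan2 and Rcan1. For the counts below, 2.59% of all transcript clusters rose and 0.666% fell by limma. Smooth muscle markers, of which 1 of 8 rose and none fell by limma, had a summed log2 signal of 18.01 to 18.18 in mutant ducts and of 15.09 to 18.02 in control ducts. Acta2, smooth muscle actin, had the highest signal of that list on every array, and other markers of the list differed from it. It was at 17.85, 17.67 and 17.85 in mutant ducts and 14.04, 15.76 and 17.57 in control ducts (limma adjusted p = 0.191). Tagln, an actin-binding protein and the marker that rose, was at 15.37, 15.26 and 15.02 in mutant ducts and at 11.52, 12.76 and 12.62 in control ducts. Smooth muscle myosin, Myh11, was at 8.04, 7.64 and 7.57 in mutant ducts and at 6.70, 7.61 and 12.58 in control ducts, so it was high on control 3 alone. Rcan1 and Rcan2 were both highest among controls on that array, where urothelial markers reached 14.61. Of the macrophage markers 8 of 10, and of the immediate early and stress genes 7 of 14, separated the genotypes without overlap, where 21.1% of all transcript clusters did. Endothelial markers summed to 15.22 to 15.48 in mutant and 14.88 to 15.02 in control ducts, but 1 of 8, the VEGF receptor gene Kdr, rose, while 5 of 8 had a log2 fold change below 0 and the median was -0.15. Mesothelial markers, 1 of 4 risen, were at 14.21 to 14.38 in mutant and 14.43 to 14.55 in control ducts. The part of these lists in the difference of Rcan2 was not tested.

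Markers of the duct itself were present. Müllerian mesenchyme genes summed to 15.13 to 15.95 in mutant and 15.94 to 16.34 in control ducts, and 1 of 5 fell by limma, Amhr2. Calls made up 3.26% of all transcript clusters, rises 2.59% and falls 0.666%. Of the 5 mesenchyme genes 4 had an unadjusted p under 0.05, against 15.3% of all transcript clusters. These 4 had lower values in mutant ducts, among them Hoxa11 at -1.09 (limma adjusted p = 0.0557), Hoxa10 at -0.75 and Osr2 at -0.69. The median log2 fold change of the 5 was -0.75. Müllerian epithelium genes summed to 12.60 to 13.33 in mutant and 13.13 to 13.81 in control ducts, with 1 of 9 risen, Lhx1, which was below background on all arrays. The value of 13.81 was that of control 3, and control 1 and control 2 were at 13.13 and 13.27, within the mutant range. Cdh1 of this list was at 12.34 on control 3, against 9.66 and 9.56 on control 1 and control 2. Neuronal markers, none of 5 called, summed to 12.65 to 13.51 in mutant and 12.84 to 14.42 in control ducts, and skeletal muscle markers, none of 7 called, to 7.92 to 8.31 in mutant and 7.91 to 8.47 in control ducts. For both of these lists the highest control sum was also that of control 3. The lymphocyte markers Cd3e, Cd3g and Cd79a were below background on all arrays. Gonad and germ cell markers, none of 6 called and 4 of them below background throughout, summed to 7.62 to 8.70 in mutant and 8.15 to 8.70 in control ducts.

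**Figure D5:**
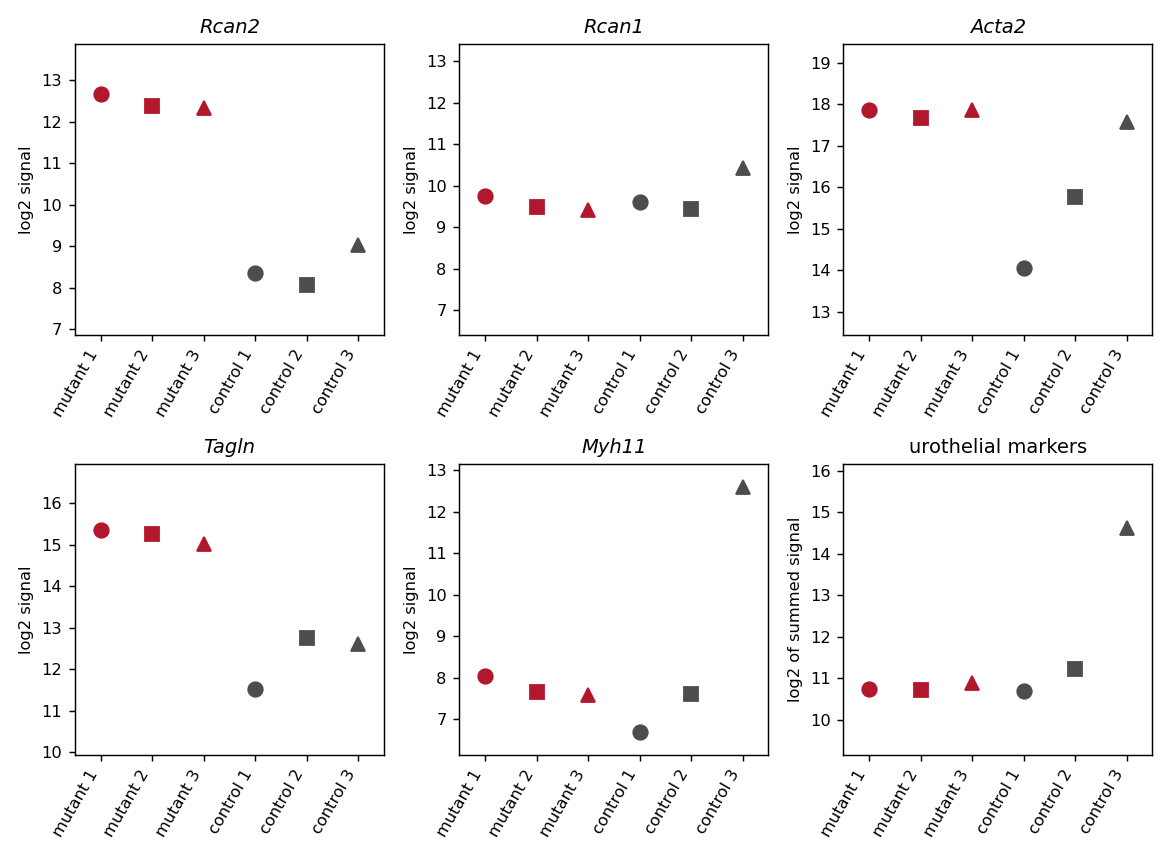
Log2 signal of Rcan2, Rcan1 and the smooth muscle genes Acta2, Tagln and Myh11, and log2 of the summed signal of urothelial markers, on each array, mutant arrays in red on the left and control arrays in grey on the right. All panels have the same span in log2 units. Control 3 stands alone for Myh11 (12.58) and urothelial markers (14.61), and its Tagln signal (12.62) is below all mutant arrays.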

How the data were processed

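Total RNA of 6 Müllerian duct samples was hybridised to 1 array each, and the authors deposited 1 table of log2 signals. Transcriptome Analysis Console 4.0 is listed in the submitters' processing notes. The labels do not state how the authors summarised and normalized the log2 signals, nor a genome build. The values were taken as deposited, and no coordinates of array rows are given. Control rows were left out, and 22206 transcript clusters were tested, 19572 of them with 1 symbol and 2634 not listed in the platform's probe table. Where a gene had several rows, the one with the highest mean was used. Groups came from the titles.

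A linear model with genotype as its single term was fitted to each row in limma 3.58.1 (R 4.3.3; lmFit, then eBayes), with two-sided tests and Benjamini-Hochberg adjustment over all rows at 0.05. Fits were tested on simulated data. Intervals are at 95%. Summed marker signals are log2 of the sum of linear signals.

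Members and lists were chosen with earlier results of these data known. Named were all members, up to 4 genes of each list with the smallest p, Ppp3r1, Nfat5, the genotype genes and the 5 profiles nearest to Rcan2 and to Rcan1. Marker genes and Cd3e, Cd3g and Cd79a were named after their values were seen, as were Ctsk, Egr3, Gata2 and Gata4. Alternatives were quantile normalization, a common median, 2 filters on dim rows, a trended robust prior, array weights, a replicate block and each array left out. Figures used matplotlib 3.10.9 in Python 3.11.15.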

Additional observations from a re-analysis of the deposited data

How the results depend on the processing

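The Rcan2 difference lay between 3.76 and 4.24 when 1 array was left out and between 3.94 and 4.03 under the other alternatives. By limma none of the 8 other members was called under any of the 13 alternatives, with at most 1 at an unadjusted p under 0.05, and Nfatc2 was not tested without rows under the median. Signs close to 0 turned. Rcan1 ranged from -0.467 to 0.0258 with 1 array left out, Ppp3cc from -0.20 to 0.25, Nfatc3 from -0.0898 to 0.0701 and Nfatc4 from -0.12 to 0.17, and with quantile normalization Ppp3cc was at -0.00048 and Nfatc4 at -0.0119, while Nfatc3 was at 0.00874 with a common array median; the cause was not tested. All called transcript clusters numbered 360 to 697 with 1 array left out, 360 without mutant 1, 384 without control 1 and 454 without control 2, and 633 to 993 otherwise, against 723. Pathway genes called numbered 4 to 7 with 1 array left out, against 7, and 5 to 9 otherwise. With the trended prior Calm3 (limma adjusted p = 0.0364) and Atp2a2 (limma adjusted p = 0.0294) also passed, Atp2a2 passed without rows under the median (limma adjusted p = 0.0485), and Junb without control 3 (limma adjusted p = 0.0203). With the replicate number as a block, 633 transcript clusters, 0 of the 8 members and 5 pathway genes were called, and F3 (limma adjusted p = 0.0501) and Dnm1 (limma adjusted p = 0.0855) were lost. The labels do not say whether the numbers pair the samples, and correlations of so few arrays cannot decide it. Deviations of same-numbered arrays correlated at 0.0078, 0.042 and -0.0030. Those of differently numbered arrays correlated between -0.044 and 0.032. Signals near the background level limit what can be read for Nfatc2, Il6 and Plcg2, and for Ptgs2 in control ducts. Control signals of F3, and of Fos on control 1 and control 2, lay below the negative-control median. Gata4, Egr3 and Tfeb lay below it on every array.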
